A study of Mus musculus with 9 samples.

Results

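Proliferation was examined here through 40 cell cycle genes in phagocytes of the mouse peritoneal wall. The genes were chosen by symbol, by a rule that names no measured value, from the 28764 gene symbols of the deposited expression table, and all 40 symbols are listed there. They fall into 15 genes of DNA replication (S phase) and 25 genes of late cell cycle and division (G2/M). Expression is in TPM, a relative transcript abundance corrected for transcript length and for the total of the library.

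All 9 libraries come from Cx3cr1gfp/+Ccr2rfp/+ mice, an F1 cross in which a green reporter stands in 1 copy of Cx3cr1 and a red reporter in 1 copy of Ccr2, so that every population carries 1 intact copy of each receptor gene. The mice received 50 µg of fluorescent dextran into a vein on the previous day and were perfused. The peritoneal wall was then digested for 20 min, and cells positive for CD11b and negative for Ly6G were sorted into 3 populations. The double-negative cells took up dextran, lacked surface MHC class II and both reporters, made up 85 to 90% of the gate and are described by the submitters as most of the sessile resident macrophages. The CCR2-RFP cells were MHC class II positive and carried the red reporter, made up 10 to 15% of the gate and are described as migratory tissue monocytes. The CX3CR1-GFP cells were MHC class II positive and carried the green reporter, made up 0.5 to 1.5% and are described as sessile resident macrophages. Each population has 3 libraries, labelled sort 1, 2A and 2B, and the study text gives 3 mice and 3 replicates per population without saying which mouse each sort label is; the sources used here give no age or sex. Values are given below in the order 1, 2A and 2B.

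A dividing cell first loads and fires the replicative helicase built from the Mcm proteins, copies its DNA with the sliding clamp Pcna and a supply of nucleotides, and then builds cyclin B with Cdk1 and the spindle machinery to enter mitosis. Many S phase genes are switched on by E2F factors, and many G2/M genes through promoters that carry a cell cycle homology region (CHR) and CCAAT boxes, which the DREAM and B-Myb complexes and NF-Y bind. Resident macrophages of many tissues are known to maintain themselves partly by low local proliferation, whereas monocyte-derived cells are replaced from the blood.

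The sort labels were visible in the RNA. Ccr2 was measured at 95.4, 111 and 115 TPM in the CCR2-RFP libraries and at no more than 6.68 TPM in the others. Cx3cr1 was measured at 6.51, 16.4 and 4.13 TPM in the CX3CR1-GFP libraries, and the other 6 libraries list it at 0. The CCR2-RFP libraries also held more conventional dendritic cell marker RNA, with a summed level of 126 to 174 TPM over 10 genes against 38.2 to 74.7 in double-negative and 23.0 to 30.1 in CX3CR1-GFP libraries. Of these genes, 9 could be tested with limma. In CCR2-RFP 7 were higher and 1 lower than in the double-negative population, beside 14.9% and 9.88% of all tested genes. Classical monocyte genes were low in the CCR2-RFP libraries apart from Ccr2 and F13a1, with Ly6c2 at 1.04, 0 and 0.0778 TPM. The 8 monocyte markers summed to 219 to 263 TPM in CCR2-RFP, 341 to 385 in double-negative and 163 to 231 in CX3CR1-GFP libraries. Of 3 tested, 1 was higher and 1 lower in CCR2-RFP than in the double-negative population, beside the same 14.9% and 9.88%. The summed level of 7 T and NK cell markers was 35.2 to 49.0 TPM in CCR2-RFP, 2.08 to 3.52 in double-negative and 1.97 to 11.5 in CX3CR1-GFP libraries, but Cd2 alone supplied 33.5 to 41.1 TPM in CCR2-RFP and Cd3e did not exceed 0.249 TPM anywhere. The summed level of 5 innate lymphoid markers was 17.0 to 23.6 TPM in CCR2-RFP, 4.55 to 8.75 in double-negative and 9.31 to 15.3 in CX3CR1-GFP libraries, most of it Il1rl1. Of its 3 tested genes, 2 (Il7r and Il1rl1) were higher in CCR2-RFP than in the double-negative population, beside 14.9% of all tested genes. The other tested gene was lower in CCR2-RFP without overlap but was not called. Gata3 did not exceed 0.209 TPM anywhere. The part of these other cell types in the results was not tested.

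RefSeq promoter windows (GRCm38.p6) of 300 bases, from 250 before to 50 after the transcription start, were found for 33 of the 40 genes and searched on both strands. A CHR (TTTGAA or TTCGAA) was present in 16 of 20 G2/M promoters (80%) and 2 of 13 S phase promoters (15.4%), beside 19.4% of 27025 promoters in the table and 13.7% of the 7609 promoters of genes tested here. The core E2F letters (TTCCCGC or TTCGCGC or TTGCCGC or TTGGCGC) were present in 5 of 20 G2/M promoters (25%) and 9 of 13 S phase promoters (69.2%), beside 9.69% of all and 17.1% of those of tested genes. CCAAT was present in 18 of 20 (90%) and 9 of 13 (69.2%), beside 37.9% of all and 38.2% of those of tested genes. No motif contains another, and E2F matches on opposite strands can share bases. The 180 bases before the start are printed 5′ to 3′ on the gene's strand for 3 G2/M genes that were higher in CCR2-RFP cells, Top2a (chr11:99024190-99024369, minus strand), Mki67 (chr7:135716380-135716559, minus strand) and Birc5 (chr11:117849057-117849236, plus strand), and for 2 S phase helicase genes, Mcm6 (chr1:128359706-128359885, minus strand) and Mcm5 (chr8:75109329-75109508, plus strand). Capitals mark matches to the 3 motifs on either strand.
Top2a: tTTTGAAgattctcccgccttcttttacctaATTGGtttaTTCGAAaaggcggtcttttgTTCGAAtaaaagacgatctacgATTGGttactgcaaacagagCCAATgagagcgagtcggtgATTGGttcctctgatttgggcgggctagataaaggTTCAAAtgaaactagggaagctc
Mki67: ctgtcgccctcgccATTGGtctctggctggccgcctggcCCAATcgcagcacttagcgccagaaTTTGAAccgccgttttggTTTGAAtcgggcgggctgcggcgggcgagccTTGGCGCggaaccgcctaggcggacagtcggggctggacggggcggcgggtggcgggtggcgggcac
Birc5: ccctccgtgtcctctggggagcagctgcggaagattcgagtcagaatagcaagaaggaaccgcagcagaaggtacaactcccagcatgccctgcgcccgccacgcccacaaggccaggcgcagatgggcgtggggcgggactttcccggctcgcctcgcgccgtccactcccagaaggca
Mcm6: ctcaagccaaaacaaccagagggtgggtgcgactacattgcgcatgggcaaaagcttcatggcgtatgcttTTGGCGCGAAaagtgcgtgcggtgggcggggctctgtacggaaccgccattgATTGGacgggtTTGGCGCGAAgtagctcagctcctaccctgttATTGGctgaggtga
Mcm5: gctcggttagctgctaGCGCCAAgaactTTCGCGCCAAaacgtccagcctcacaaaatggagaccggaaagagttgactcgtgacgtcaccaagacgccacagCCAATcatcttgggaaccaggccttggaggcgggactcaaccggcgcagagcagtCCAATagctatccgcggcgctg
The Top2a window held 4 CHR matches and 6 CCAAT matches over its 300 bases and no E2F match, and Mki67 held 2, 3 and 1 of them in that order of motifs. Mcm6 held no CHR, 2 CCAAT and 5 E2F matches, and Mcm5 held none, 3 and 3. Birc5 held no match to any of the 3 motifs in this window.

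**Figure D1:**
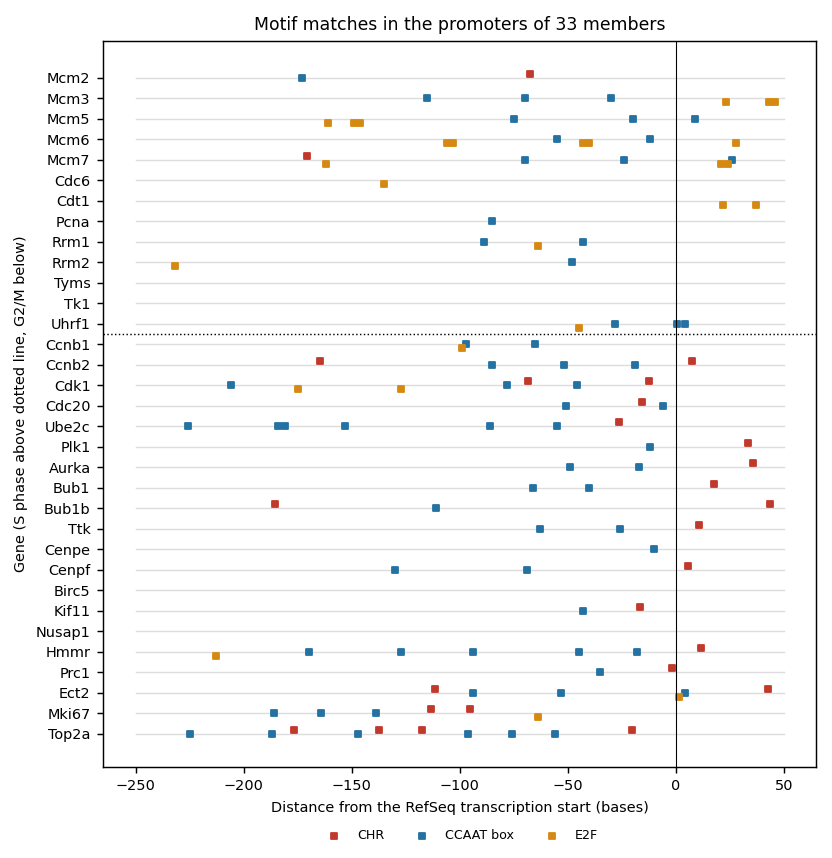
Positions of motif matches in the 300-base promoter windows of 33 cell cycle genes, with distance from the RefSeq start in bases on the x axis and 1 gene per line; red squares are CHR, blue CCAAT and orange E2F matches on either strand. CHR matches lie in 16 of 20 G2/M lines and 2 of 13 S phase lines, while E2F matches lie in 9 of 13 S phase lines.

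Most cell cycle transcripts were scarce. Of the 40 genes, 34 stayed below 5 TPM in every library, 8 of them below 1 TPM, and only Pcna and Top2a reached 10 TPM. In all, 10 genes were listed at 0 in some library. The mean was highest in the CCR2-RFP population for 37 of the 40 genes and in the CX3CR1-GFP population for 3 (Rrm1, Ttk and Prc1), and it was lowest in the double-negative population for 29 and in the CX3CR1-GFP population for 11. No share over all genes was computed for these counts. Without Siglece, Rn18s, mitochondrial and ribosomal protein genes, the listed TPM summed to 208617 to 218673 in CCR2-RFP and 168791 to 190339 in the other libraries. These are bulk libraries, so a smaller share of dividing cells and less RNA per dividing cell cannot be told apart. The table holds TPM without read counts, so the depth behind each value is unknown and no counting interval can be given.

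**Figure D2:**
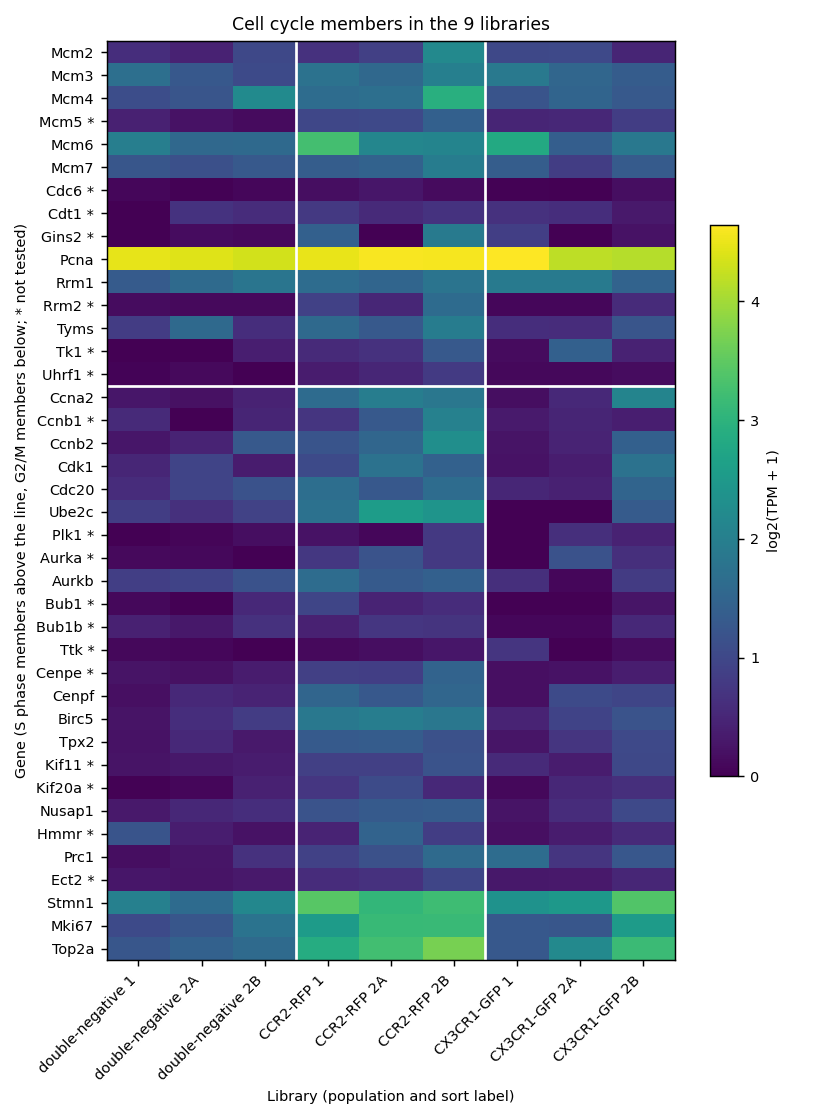
Levels of the 40 cell cycle genes as log2(TPM + 1), with the 9 libraries in columns by population and sort label and the genes in rows, S phase above the white line and G2/M below. The CCR2-RFP columns are brighter through the G2/M rows, Pcna is bright in all 9 libraries at 16.6 to 24.1 TPM, and the CX3CR1-GFP 2B column is brighter than the other CX3CR1-GFP columns for Ccna2, Cdk1, Stmn1, Mki67 and Top2a.

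Summed over the 25 G2/M genes, the level was 12.2, 12.5 and 18.8 TPM in the double-negative libraries, 46.3, 56.2 and 64.8 TPM in the CCR2-RFP libraries and 13.5, 18.4 and 44.2 TPM in the CX3CR1-GFP libraries. Every CCR2-RFP library lay above every library of the other populations, and CX3CR1-GFP 2B lay above its 2 companions. The 14 S phase genes other than Pcna summed to 11.1, 11.4 and 13.4 TPM in double-negative, 24.5, 16.6 and 34.1 TPM in CCR2-RFP and 18.0, 13.2 and 12.97 TPM in CX3CR1-GFP libraries. Here too the CCR2-RFP and double-negative libraries did not overlap, but CCR2-RFP 2A lay below CX3CR1-GFP 1. CX3CR1-GFP 2B stood apart in the G2/M sum and not in the S phase sum.

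**Figure D3:**
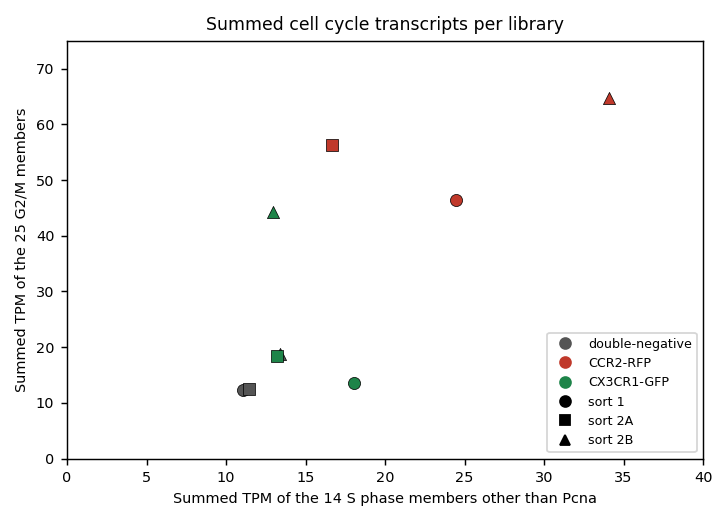
Summed TPM of the 25 G2/M genes (y axis) against summed TPM of the 14 S phase genes other than Pcna (x axis), 1 point per library, with colour for population and shape for sort label. The 3 CCR2-RFP libraries lie at 46.3 to 64.8 TPM on the y axis, the double-negative libraries at 12.2 to 18.8, and CX3CR1-GFP 2B at 44.2 apart from the other 2 CX3CR1-GFP libraries.

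The comparison of CCR2-RFP with double-negative cells asks how division genes differ between the migratory and the main sessile population. Of the 40 genes, 22 reached 1 TPM in at least 3 of the 9 libraries and were tested with limma across all 10136 such genes, 8 of S phase and 14 of G2/M. The test called 9 of the 22 higher in CCR2-RFP cells, none lower, and 13 did not pass, where 14.9% of all tested genes were called higher and 9.88% lower. All 9 are G2/M genes. Of the 22 genes, 12 entered the test only through their CCR2-RFP values, so this count is not independent of the population in which they are high. The other 10 reached 1 TPM in 3 libraries outside CCR2-RFP, and 3 of them (Stmn1, Mki67 and Top2a) were called higher, beside 13.1% of the 9403 genes that met the same condition. Fold changes are on the log2(TPM + 1) scale, which understates the change of genes at a few TPM. The p-values rest on the spread between sorted samples within all 3 populations together, so the population not compared also enters them. For Ccna2 the SE of this comparison was 0.415 with all 9 libraries and 0.202 without CX3CR1-GFP 2B.

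Among the chromatin and proliferation genes, Top2a encodes the topoisomerase that untangles replicated chromosomes. It was measured at 6.33, 8.46 and 11.9 TPM in CCR2-RFP libraries (8.91 ± 2.83, SD, n = 3) and at 1.36, 1.73 and 2.03 TPM in double-negative libraries (1.71 ± 0.338). The populations did not overlap, and the log2 fold change was 1.84 (SE 0.410, adjusted p = 0.00771, limma). Mki67 encodes the Ki-67 protein that coats mitotic chromosomes and is widely used to mark cycling cells. It was measured at 4.82, 7.72 and 7.91 TPM against 1.07, 1.37 and 2.42 TPM. All CCR2-RFP libraries were higher than all double-negative libraries, and the log2 fold change was 1.58 (SE 0.366, adjusted p = 0.00953).

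Of the 9 cyclin, kinase and ubiquitin ligase genes, 6 were tested and 2 were higher. Ccna2, the cyclin of S phase and mitotic entry, stood at 2.08, 2.91 and 2.60 TPM in CCR2-RFP and at 0.217, 0.1504 and 0.353 TPM in double-negative libraries (log2 fold change 1.51, SE 0.415, adjusted p = 0.0231). Ube2c, the ubiquitin-conjugating enzyme that works with the anaphase-promoting complex, stood at 2.31, 4.90 and 4.29 TPM against 0.793, 0.555 and 0.896 TPM (log2 fold change 1.43, SE 0.368, adjusted p = 0.0165). Neither gene's libraries overlapped between the populations. Of the Ube2c exon bases, 22.8% are shared with the muscle gene Tnnc2 on the opposite strand, and no source used here gives the strand setting of the quantification. CCR2-RFP 2A, the highest Ube2c library, also had more skeletal muscle marker RNA, at 776 TPM over 5 genes against 37.2 and 32.6 TPM in its companions. CX3CR1-GFP 2A, with the highest muscle sum at 1358 TPM, had Ube2c listed at 0. The part of muscle RNA in the Ube2c values was not tested. Ccna2 shares 12.5% of its exon bases with Exosc9.

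The other 4 tested genes of this group did not pass. Cdk1, the kinase that drives mitotic entry, was measured at 1.06, 2.35 and 1.71 TPM in CCR2-RFP and 0.408, 0.946 and 0.281 TPM in double-negative libraries. Its partner Ccnb2 was measured at 1.30, 1.89 and 3.91 against 0.222, 0.381 and 1.47 TPM. Cdc20 activates the anaphase-promoting complex, and Aurkb is the kinase of the chromosomal passenger complex. Cdc20 was measured at 2.20, 1.42 and 2.11 against 0.507, 0.943 and 1.24 TPM, and Aurkb at 2.12, 1.50 and 1.69 against 0.829, 0.924 and 1.26 TPM. Of these 4 genes, only Ccnb2 overlapped between the populations. The 3 genes too low to test were the mitotic kinases Plk1 and Aurka and the mitotic cyclin Ccnb1. Ccnb1 was highest in CCR2-RFP at 0.650, 1.47 and 3.09 TPM, and Aurka reached 1.27 TPM in CCR2-RFP 2A and 1.25 TPM in CX3CR1-GFP 2A. Plk1 did not exceed 0.713 TPM in any library.

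Birc5, which encodes survivin of the chromosomal passenger complex, had the smallest adjusted p of the tested members. It was measured at 2.63, 2.92 and 2.58 TPM in CCR2-RFP libraries (2.71 ± 0.185, SD, n = 3) and at 0.178, 0.521 and 0.780 TPM in double-negative libraries (0.493 ± 0.302). The log2 fold change was 1.33 (SE 0.241, adjusted p = 0.00237, limma), with no overlap. Cenpf, a kinetochore protein that accumulates in G2, was measured at 1.84, 1.41 and 1.91 against 0.146, 0.455 and 0.383 TPM (log2 fold change 1.04, SE 0.251, adjusted p = 0.0119). Neither gene overlapped between the populations, and both entered the test only through their CCR2-RFP values. The other 4 checkpoint and kinetochore genes were too low to test. The kinetochore motor Cenpe was measured at 0.841, 0.826 and 1.79 TPM in CCR2-RFP and at 0.142 to 0.298 TPM in the other 6 libraries. The checkpoint kinases Bub1, Bub1b and Ttk stayed below 1 TPM throughout, and their highest values were 0.972, 0.655 and 0.650 TPM, the last in CX3CR1-GFP 1.

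Of the 8 spindle and cytokinesis genes, 4 were tested and 3 were higher in CCR2-RFP. Stmn1, which encodes the microtubule destabiliser stathmin, stood at 9.89, 7.42 and 8.19 TPM against 3.04, 2.10 and 3.46 TPM (log2 fold change 1.31, SE 0.280, adjusted p = 0.00630). Tpx2, which recruits Aurora A to spindle microtubules, stood at 1.49, 1.55 and 1.22 against 0.172, 0.444 and 0.239 TPM (log2 fold change 0.92, SE 0.225, adjusted p = 0.0130). Nusap1, a microtubule-bundling spindle protein, stood at 1.27, 1.48 and 1.56 against 0.239, 0.428 and 0.527 TPM (log2 fold change 0.81, SE 0.227, adjusted p = 0.0257). None of the 3 overlapped between populations. Prc1, which bundles the microtubules of the midzone, did not pass at 0.860, 1.21 and 2.04 against 0.122, 0.198 and 0.580 TPM. The motor genes Kif11 and Kif20a, the spindle gene Hmmr and the cytokinesis regulator Ect2 were too low to test, with maxima of 1.28, 1.08, 1.77 and 0.969 TPM, each in a CCR2-RFP library. Hmmr was uneven, with 1.31 TPM in double-negative 1 and 0.373 TPM in CCR2-RFP 1.

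**Figure D4:**
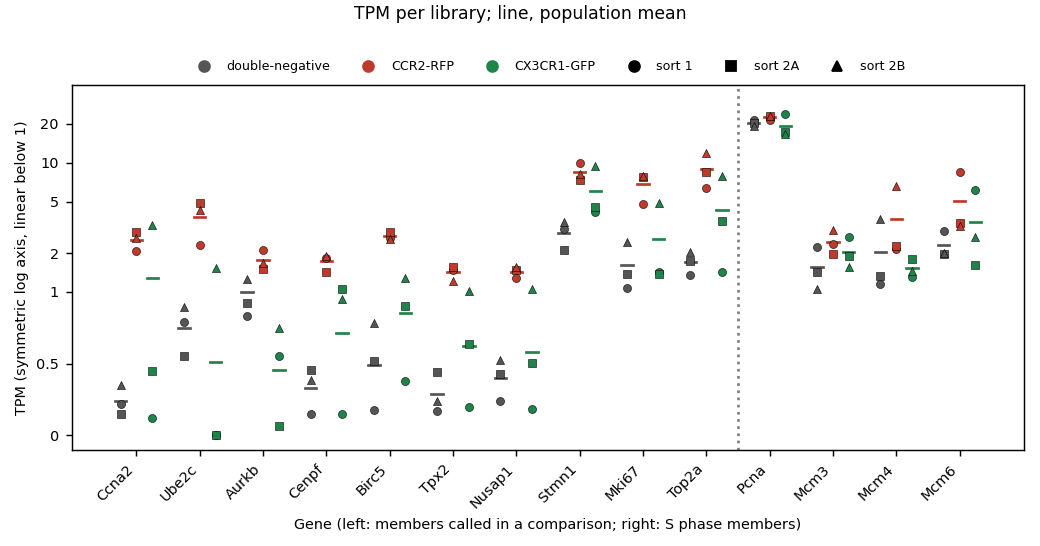
TPM per library (symmetric log axis, linear below 1 TPM) for the 10 genes called in a comparison, left of the dotted line, and for 4 S phase genes; points are libraries, colour is population, shape is sort label and short lines are population means. Top2a, Mki67 and Stmn1 sit at 4.82 to 11.9 TPM in all CCR2-RFP libraries and at 1.07 to 3.46 TPM in all double-negative libraries, while Pcna lies at 16.6 to 24.1 TPM throughout.

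None of the 8 tested S phase genes was called in this comparison, and none had an unadjusted limma p below 0.05. Whether S phase and G2/M genes differ in their response was not tested. Pcna, the sliding clamp of the replicative polymerases, was measured at 21.6, 23.2 and 22.9 TPM in CCR2-RFP and 21.4, 20.4 and 19.1 TPM in double-negative libraries. Its level exceeded that of every other S phase gene in each library. Pcna and Tyms, Ccnb1, Ccnb2 and Stmn1 have processed copies or related loci in the mouse genome, so reads shared with those copies make their levels less certain. Tyms, the enzyme that makes thymidylate, was measured at 2.02, 1.45 and 2.85 against 0.777, 2.02 and 0.529 TPM, with overlap. Rrm1, the large subunit of ribonucleotide reductase, lay at 1.53 to 2.79 TPM over all 9 libraries.

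The helicase genes were at a few TPM. Mcm6 was measured at 8.54, 3.39 and 3.27 TPM in CCR2-RFP and at 2.97, 1.98 and 2.02 TPM in double-negative libraries, and Mcm7 at 1.58, 1.76 and 2.84 against 1.36, 1.19 and 1.46 TPM. Neither overlapped, yet neither passed. Mcm4 was measured at 2.13, 2.25 and 6.65 against 1.14, 1.34 and 3.69 TPM, and Mcm3 at 2.35, 1.95 and 2.997 against 2.23, 1.42 and 1.05 TPM. Mcm2 was measured at 0.593, 0.849 and 3.56 against 0.521, 0.355 and 1.02 TPM. These 3 overlapped, and for Mcm2 and Mcm4 the sort 2B library was the highest in both populations.

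Those 7 untested S phase genes were Mcm5, the licensing factors Cdc6 and Cdt1, the helicase cofactor Gins2, the small ribonucleotide reductase subunit Rrm2, thymidine kinase Tk1 and the maintenance methylation cofactor Uhrf1. Mcm5 was measured at 0.997, 1.04 and 1.69 TPM in CCR2-RFP against 0.339, 0.175 and 0.106 TPM in double-negative libraries. Uhrf1 was measured at 0.279, 0.417 and 0.728 against 0.0256, 0.0789 and 0.0122 TPM. Rrm2 was measured at 0.854, 0.411 and 2.10 against 0.113, 0.0814 and 0.0785 TPM. For each of these 3 the CCR2-RFP libraries lay above every double-negative library. Cdc6 stayed at or below 0.215 TPM and Cdt1 at or below 0.712 TPM in all libraries, and Tk1 reached 1.47 TPM in CCR2-RFP 2B and 1.68 TPM in CX3CR1-GFP 2A. Gins2 ranged from 0 to 2.79 TPM within CCR2-RFP, and 67.3% of its exon bases are shared with Gse1 on the other strand. With no filter on low values, 7 of the 40 genes were called higher, where 1233 of all 25666 genes tested in that way were called higher. Among the 7 were Mcm5 (adjusted p = 0.0350), Uhrf1 (adjusted p = 0.0219) and Cenpe (adjusted p = 0.0410, limma), while Ccna2, Ube2c, Cenpf, Tpx2 and Nusap1 no longer passed.

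Within sorts, 35 of the 40 genes (87.5%) were higher in CCR2-RFP than in the double-negative population in all 3 sorts. Among them were 20 of the 22 tested genes (90.9%), against 33.5% of the 10136 tested genes. The 40 include 18 genes too low to test, and 12 of the 22 entered the test only through their CCR2-RFP values. Of the 10 genes that passed the filter outside CCR2-RFP, all except Rrm1 were higher in all 3 sorts. The 35 were made up of 24 of the 25 G2/M genes and 11 of the 15 S phase genes. Among the 22 tested genes, the libraries of the 2 populations did not overlap for 16, all higher in CCR2-RFP, where 25.8% of tested genes did so in that direction. This count too is partly set by the filter, and of the 10 genes that passed it outside CCR2-RFP 6 did not overlap, beside 23.9% of the 9403 genes. Birc5 and Stmn1 were called under each alternative that tested them, and Mki67 and Top2a under each except without the 3 libraries of sort 2A. Birc5 is among the genes that entered the main test only through their CCR2-RFP values, and without sort 2B it was too low to test. Of 21 alternatives, the call was lost in 11 for Nusap1, in 7 for Ccna2, in 6 for Ube2c, in 5 for Tpx2 and in 4 for Cenpf. Single libraries that ended a call were double-negative 1 for Nusap1, Ccna2, Tpx2 and Cenpf, CCR2-RFP 1 for Nusap1, and double-negative 2A, CCR2-RFP 2A and CCR2-RFP 2B for Nusap1, Ccna2 and Ube2c, as well as double-negative 2B for Ccna2. The count fell from 9 to 2 (Birc5 and Stmn1) without sort 2A, to 5 without double-negative 1 and to 3 without sort 2B, where 11 of the genes were still tested, or 7 when the same genes were tested. Leaving out CCR2-RFP 2A, CCR2-RFP 2B or double-negative 2A each left 6. With the sort label as a replicate block the count was 10, adding Ccnb2 (adjusted p = 0.00538, limma). No called gene changed sign.

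Many of the 40 genes were highest in the sort 2B library of their population. In CX3CR1-GFP these were 19 G2/M genes and 5 S phase genes. Within the double-negative, CCR2-RFP and CX3CR1-GFP populations, 23, 23 and 24 of the 40 genes were highest in sort 2B, where 33.4%, 36.7% and 29.6% of tested genes were highest in that library. For 7 of the 40 genes sort 2B was highest in all 3 populations, against 4.23% of tested genes. The counts over 40 include 18 genes too low to test, whereas the shares are of tested genes only. CCR2-RFP 2B was the highest of all 9 libraries for 19 of the 40 genes, a count for which no share over all genes was computed.

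The comparison of CX3CR1-GFP with double-negative cells sets the rare sessile macrophages against the main ones. It shares its double-negative libraries with the comparison above. None of the 22 tested genes was called in either direction, where 1.16% of tested genes were called higher and 1.61% lower by limma. At an unadjusted p below 0.05 there were 2, and the count at the adjusted threshold was 0 under all 23 alternatives. Stmn1 was measured at 4.16, 4.55 and 9.45 TPM in CX3CR1-GFP and 3.04, 2.10 and 3.46 TPM in double-negative libraries. Prc1 was measured at 2.12, 0.645 and 1.40 against 0.122, 0.198 and 0.580 TPM. These 2 genes did not overlap and were higher in CX3CR1-GFP, where 8.22% of tested genes did so. Aurkb did not overlap in the other direction, at 0.551, 0.0649 and 0.749 TPM against 0.829, 0.924 and 1.26 TPM, where 12.9% of tested genes did so. In all 3 sorts, 12 of the 40 genes (30%) were higher in CX3CR1-GFP than in the double-negative population. Among them were 7 of the 22 tested genes (31.8%), against 15.9% of all tested genes.

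The spread within the CX3CR1-GFP population was wide, with sort 2B above the other sorts for the G2/M genes that follow. Top2a was measured at 1.43, 3.56 and 7.96 TPM, Mki67 at 1.42, 1.37 and 4.86 TPM and Ccna2 at 0.121, 0.446 and 3.28 TPM. The value in sort 2B for Ccna2 was the highest of all 9 libraries, as was Cdk1 at 2.39 TPM after 0.168 and 0.296 TPM. Cdc20 at 0.415, 0.338 and 1.83 TPM and Ccnb2 at 0.188, 0.386 and 1.70 TPM were likewise highest in sort 2B. Within this population sort 2B was highest for 19 of the 25 G2/M genes and 5 of the 15 S phase genes, a difference that was not tested. Mcm6 was highest in sort 1 at 6.12 TPM against 1.61 and 2.65 TPM, whereas Tyms was highest in sort 2B at 1.35 TPM against 0.528 and 0.508 TPM. In CX3CR1-GFP 2B, Ccr2 was measured at 6.68 TPM, against 95.4 TPM in the lowest CCR2-RFP library, and the dendritic cell gene Itgax at 1.35 TPM against 8.31 to 9.34 TPM in CCR2-RFP. Its Rn18s level of 28075 TPM was the highest of the 9 libraries. The part of other cell types or of RNA quality in its values was not tested.

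The comparison of CX3CR1-GFP with CCR2-RFP cells sets the 2 MHC class II positive populations against each other and shares libraries with both comparisons above. Of the 22 tested genes, 4 were lower in CX3CR1-GFP, none higher, and 18 did not pass, where 17.3% of tested genes were called lower and 8.96% higher. Ube2c was listed at 0, 0 and 1.53 TPM in CX3CR1-GFP libraries against 2.31, 4.90 and 4.29 TPM in CCR2-RFP libraries (log2 fold change -1.78, SE 0.368, adjusted p = 0.00523, limma). Birc5 was measured at 0.377, 0.900 and 1.28 TPM against 2.63, 2.92 and 2.58 TPM (log2 fold change -1.03, SE 0.241, adjusted p = 0.0102). Aurkb was measured at 0.551, 0.0649 and 0.749 TPM against 2.12, 1.50 and 1.69 TPM (log2 fold change -0.95, SE 0.229, adjusted p = 0.0116). These 3 genes did not overlap between the populations, and in all 8 of the 22 did not overlap and were lower in CX3CR1-GFP, where 25.2% of tested genes did so. Of the 4, Ube2c, Birc5 and Aurkb entered the test only through their CCR2-RFP values. Of the 10 genes that passed the filter outside CCR2-RFP, 1 (Mki67) was called lower and 1 (Mcm4) was lower without overlap, beside 15.9% and 23.6% of the 9403 such genes. Mki67 passed with overlap, since CX3CR1-GFP 2B at 4.86 TPM lay just above CCR2-RFP 1 at 4.82 TPM (log2 fold change -1.25, SE 0.366, adjusted p = 0.0296).

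This number of lower genes depended on the pairing and on single libraries. With the sort label as a replicate block, 7 were lower, the same 4 with Ccnb2, Nusap1 and Top2a, at adjusted p-values of 0.00658, 0.0441 and 0.0260 (limma). Without CX3CR1-GFP 2B, 12 were lower, adding Ccna2, Ccnb2, Cdc20, Cdk1, Nusap1, Stmn1, Top2a and Tpx2 to the 4. Without the 3 libraries of sort 2A none was, and without sort 2B 1 was (Mki67, with 11 genes tested), or 7 when the same genes were tested. The Mki67 call was lost in 9 of 22 alternatives and the Aurkb call in 4 of 21, while those of Ube2c and Birc5 were lost only without sort 2A. In all 3 sorts, 24 of the 40 genes (60%) were lower in CX3CR1-GFP. Among them were 13 of the 22 tested genes (59.1%), against 33.1% of all tested genes. This count is partly set by the filter, since 12 of the 22 entered the test only through their CCR2-RFP values. Of the 10 genes that passed it outside CCR2-RFP, only Mcm4, Mcm6, Mki67 and Top2a were lower in all 3 sorts. Prc1 was the tested gene whose levels were closest, with means of 1.39 and 1.37 TPM.

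**Figure D5:**
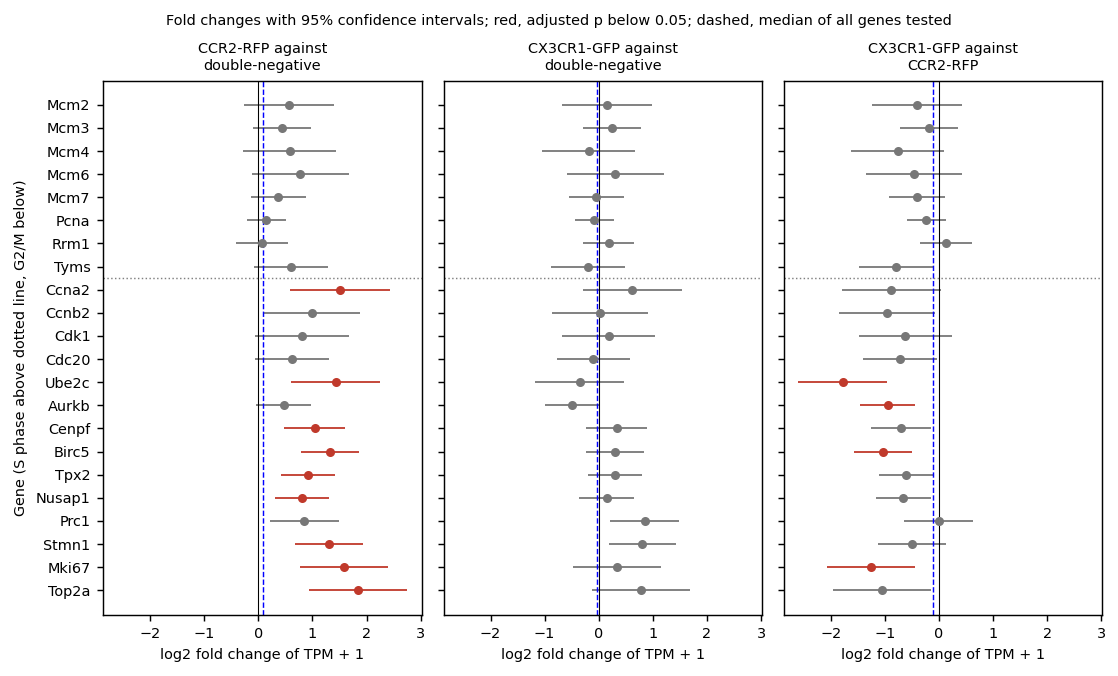
Log2 fold changes of TPM + 1 with 95% confidence intervals (x axis) for the 22 tested cell cycle genes (y axis) in the 3 comparisons; red marks an adjusted p below 0.05 and the dashed line is the median of all 10136 tested genes. The first panel holds 9 red genes, all G2/M, the second none and the third 4.

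Other genes of the cell cycle and its control were read from 7 lists, which the same limma test covered. Of 65 other genes of mitosis, kinetochore and cytokinesis, 24 were tested. In CCR2-RFP 9 were higher and none lower than in the double-negative population, beside 14.9% and 9.88% of all tested genes. The 24 had a median log2 fold change of 0.60 beside 0.09 over all tested genes, with the same limit that the filter can pass a gene through its CCR2-RFP values. Cks2, a small subunit of cyclin-dependent kinase complexes, was measured at 19.6, 12.4 and 21.8 TPM against 0.853, 3.44 and 1.65 TPM (log2 fold change 2.72, adjusted p = 0.000255). Its relative Cks1b had means of 5.11 and 0.625 TPM (log2 fold change 1.91, adjusted p = 0.00163). The passenger complex gene Cdca8 had means of 3.49 and 0.446 TPM (log2 fold change 1.65, adjusted p = 0.000351), and the histone variant gene H2afz 103 and 32.8 TPM (log2 fold change 1.67, adjusted p = 0.000389). Completing the 9, the other 5 were Knl1, Racgap1, Ckap2l, Smc2 and Smc4. Against CCR2-RFP, 8 of the 24 were lower in CX3CR1-GFP cells, beside 17.3% of all tested genes. They were led by H2afz (mean 36.7 TPM, log2 fold change -1.47, adjusted p = 0.000933), Cdca8 (0.814 TPM, -1.33, 0.00146), Cks1b (1.24 TPM, -1.57, 0.00545) and Cks2 (5.94 TPM, -1.45, 0.0115). The last 2 lost their call without sort 2B, and Cks2 also without CCR2-RFP 2B. With the replicate block Racgap1 joined the 8 (adjusted p = 0.0412) and Bub3 left them (adjusted p = 0.0714). Between CX3CR1-GFP and double-negative cells none of the 24 was called, with 2 at an unadjusted p below 0.05. H2afz and Hmgb2, the most abundant of the list, had means of 36.7 and 16.3 TPM in CX3CR1-GFP against 32.8 and 15.8 TPM in double-negative cells.

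Of 50 other genes of DNA replication and nucleotide supply, 29 were tested and 2 were higher in CCR2-RFP than in the double-negative population, none lower, a smaller share than the 14.9% of all tested genes called higher. Dut, which removes dUTP from the nucleotide pool, was measured at 1.97, 2.00 and 2.52 TPM against 0.160, 0.297 and 0.267 TPM (log2 fold change 1.35, adjusted p = 0.000302, limma). Orc6, of the origin recognition complex, had means of 2.50 and 0.918 TPM (log2 fold change 0.88, adjusted p = 0.0252), and its call was lost in 10 of 22 alternatives, among them without double-negative 1 or 2A and without CCR2-RFP 1 or 2B. Dut was also lower in CX3CR1-GFP than in CCR2-RFP cells, with a mean of 0.386 TPM (log2 fold change -1.19, adjusted p = 0.000748), the only one of the 29. Outside CCR2-RFP, Dut did not exceed 0.457 TPM, so it entered the test only through its CCR2-RFP values. Between CX3CR1-GFP and double-negative cells none was called and 1 had an unadjusted p below 0.05. The most abundant, Mcmbp and Orc4, had means of 6.74 and 6.04 TPM against 7.87 and 5.67 TPM.

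Another list held G1 cyclins and their kinases, which carry growth factor signals into the cycle, and also the phosphatase gene Cdc25b. Of its 12 tested genes, 1 was higher and 2 lower in CCR2-RFP than in the double-negative population, beside 14.9% and 9.88% of all tested genes. Ccnd2, a D-type cyclin, was measured at 10.8, 15.4 and 11.4 TPM in CCR2-RFP, 1.82, 1.25 and 0.141 TPM in the double-negative libraries and, between them, 3.44, 6.24 and 3.35 TPM in CX3CR1-GFP libraries. It was higher in CCR2-RFP than in the double-negative population (log2 fold change 2.79, adjusted p = 0.000188) and lower in CX3CR1-GFP than in CCR2-RFP cells (-1.37, 0.0140), the latter lost without CCR2-RFP 2A. Cdk6, a kinase partner of D-type cyclins, ran the other way, at 5.03, 6.22 and 4.93 TPM in CCR2-RFP, 12.6, 13.6 and 13.2 TPM in the double-negative libraries and highest, with 20.2, 45.6 and 28.5 TPM in CX3CR1-GFP libraries. No population overlapped another for Cdk6. It was lower in CCR2-RFP than in the double-negative population (log2 fold change -1.15, adjusted p = 0.00693, lost without sort 2B) and higher in CX3CR1-GFP than in CCR2-RFP cells (2.27, 0.000114). It was the 1 gene of all these lists called between CX3CR1-GFP and double-negative cells (log2 fold change 1.12, adjusted p = 0.0456), a call lost in 15 of 23 alternatives, including without any 1 of the double-negative or CCR2-RFP libraries and without CX3CR1-GFP 2A or 2B. Cdc25b, a phosphatase that activates Cdk1, had means of 0.900 TPM in CCR2-RFP and 4.33 TPM in double-negative cells (log2 fold change -1.45, adjusted p = 0.00249). Ccnd3, another D-type cyclin, had means of 6.38 TPM in CX3CR1-GFP and 16.7 TPM in CCR2-RFP cells (log2 fold change -1.28, adjusted p = 0.00703). With the sort label as a replicate block, 3 of the 12 were higher in CCR2-RFP cells, adding Ccnd1 and Ccnd3 (adjusted p = 0.0367 and 0.0356), and 3 were higher in CX3CR1-GFP cells against the double-negative population, adding Ccnd1 and Ccnd2 (adjusted p = 0.0431 and 0.0411, limma).

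Of 15 tested genes that inhibit or brake the cycle, 4 were higher in CCR2-RFP cells and 1 (Cdkn1c) lower than in the double-negative population, beside 14.9% and 9.88% of all tested genes. Cdkn1a, the p21 inhibitor of cyclin-dependent kinases, was measured at 19.4, 14.9 and 17.6 TPM in CCR2-RFP, 6.28, 6.16 and 6.25 TPM in the double-negative libraries and as low, with 6.68, 5.01 and 6.55 TPM in CX3CR1-GFP libraries (log2 fold change 1.33 against double-negative, adjusted p = 0.000242). The stress-response genes Gadd45b and Gadd45g had means of 24.4 and 11.9 TPM in CCR2-RFP against 5.27 and 3.32 TPM in double-negative cells (log2 fold changes 2.01 and 1.57, adjusted p = 1.75e-05 and 0.000135). The antiproliferative gene Btg1 had means of 58.8 and 16.5 TPM (log2 fold change 1.76, adjusted p = 9.27e-05). These 4 genes were lower in CX3CR1-GFP than in CCR2-RFP cells as well, with log2 fold changes of -1.60 for Gadd45g, -1.40 for Gadd45b, -1.37 for Cdkn1a and -1.28 for Btg1 (adjusted p = 0.000142, 0.000182, 0.000226 and 0.000819). In that comparison 6 of the 15 were lower, beside 17.3% of all tested genes, with Cdkn2d and Wee1 as the other 2, and 1 (Cdkn1c) was higher; Wee1 did not pass with the replicate block (adjusted p = 0.0638). None of the 15 was called between CX3CR1-GFP and double-negative cells, with 3 at an unadjusted p below 0.05. The abundant Btg2 had means of 139 and 134 TPM there, and Btg1 23.7 and 16.5 TPM.

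In the E2F, pocket protein and MuvB families 17 genes were tested. Beside 14.9% of all tested genes called higher and 9.88% called lower, none of the 17 was higher and 3 were lower in CCR2-RFP than in the double-negative population. These were the repressive E2F gene E2f5 (means 1.65 and 4.19 TPM, log2 fold change -0.997, adjusted p = 0.00872), the MuvB subunit gene Lin52 (0.917 and 2.26 TPM, -0.80, 0.0412) and the pocket protein gene Rbl2 (5.501 and 11.9 TPM, -0.99, 0.0463). With the sort label as a replicate block Lin52 did not pass (adjusted p = 0.0536) and Rb1 was called higher (adjusted p = 0.0232). The calls of Lin52 and Rbl2 were lost in 12 of 22 and 12 of 23 alternatives, including without any 1 double-negative library for Rbl2. E2f5 was higher in CX3CR1-GFP than in CCR2-RFP cells (log2 fold change 0.68, adjusted p = 0.0490), which was lost in 16 of 22 alternatives, the replicate block among them (adjusted p = 0.0597). Between CX3CR1-GFP and double-negative cells none was called and 3 had an unadjusted p below 0.05, and Rb1 and Rbbp4 had means of 17.3 and 10.9 TPM against 14.2 and 12.6 TPM.

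Of 20 tested genes of the anaphase-promoting complex and related ligases, none was called in CCR2-RFP or CX3CR1-GFP cells against double-negative cells by limma, with 1 and 3 at an unadjusted p below 0.05. Anapc5 and Skp1a, the most abundant, had means of 23.1 and 28.8 TPM in CCR2-RFP, 28.6 and 24.8 TPM in the double-negative population and 26.3 and 23.6 TPM in CX3CR1-GFP cells. The ring protein gene Rbx1 was lower in CX3CR1-GFP than in CCR2-RFP cells, with means of 17.9 and 32.6 TPM (log2 fold change -0.82, adjusted p = 0.0150), and lost its call in 5 of 23 alternatives, among them without CCR2-RFP 1 and without sort 2A. With the replicate block Anapc11 was also lower there (adjusted p = 0.0370).

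Of 8 tested genes known to control macrophage self-renewal, 1 was higher and 5 lower in CCR2-RFP than in the double-negative population. The shares of all tested genes were 14.9% and 9.88%. Maf, whose product restrains macrophage proliferation, was measured at 37.7, 25.4 and 30.6 TPM in CCR2-RFP, 167, 177 and 150 TPM in the double-negative libraries and, in the same range, 171, 185 and 146 TPM in CX3CR1-GFP libraries (log2 fold change -2.37 against double-negative, adjusted p = 6.71e-06). Csf1r, the receptor for the main macrophage growth factor, had means of 63.4 TPM in CCR2-RFP and 207 TPM in double-negative cells (log2 fold change -1.68, adjusted p = 1.58e-05). Bhlhe40, a transcription factor gene, had means of 18.9 and 1.14 TPM (log2 fold change 3.24, adjusted p = 9.70e-06). Klf4 and Bhlhe41 were also lower. Between CX3CR1-GFP and CCR2-RFP cells 4 were higher and 1 (Bhlhe40) lower, beside 8.96% and 17.3% of all tested genes. Log2 fold changes were 2.40 for Maf, 1.67 for Csf1r and -2.36 for Bhlhe40 (adjusted p = 7.61e-06, 2.03e-05 and 7.56e-05). None was called between CX3CR1-GFP and double-negative cells, with 3 at an unadjusted p below 0.05, and Csf1r and Klf2 had means of 204 and 140 TPM against 207 and 184 TPM. With the replicate block Klf2 was also lower in CCR2-RFP cells than in the double-negative population (adjusted p = 0.0441) and Klf4 also higher in CX3CR1-GFP than in CCR2-RFP cells (adjusted p = 0.0207). The median log2 fold change of CCR2-RFP against double-negative cells was -1.24 over these 8 genes, 0.06 over the replication list, 0.39 over the G1 list, 0.24 over the inhibitors and brakes, 0.28 over the E2F, pocket protein and MuvB list and -0.07 over the anaphase-promoting complex list, beside 0.09 over all tested genes.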

How the data were processed

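RNA of sorted peritoneal wall phagocytes was sequenced from 1 ng per library as paired 75-base reads, per the labels' protocols. The authors deposited TPM per gene symbol in 9 libraries. The submitters' processing notes name bcl2fastq 2.18, cutadapt 1.8.3, Salmon 0.11.3 and mm10; annotation, strand setting and gene summarisation: not given in the sources used here. TPM keeps no read counts, so the depth is unknown. The listed symbols summed to 278579 to 382828 TPM, of which Siglece took 61107 to 123879, so levels are relative to a total in which single genes weigh heavily. Groups follow the column heading, which matches title, source name and cell type; the description of the 6 reporter-positive samples names the other reporter.

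The deposited TPM were taken to log2(TPM + 1). Genes that reached 1 TPM in 3 or more libraries were tested with limma 3.58.1 (R 4.3.3), with an intensity trend, all populations in 1 fit, and Benjamini-Hochberg adjusted p below 0.05 over 10136 genes. The method was tested on simulated data. The main fit had no block. The study text gives 3 mice and 3 replicates per group but not which mouse each sort label is; the sort labels were assumed to pair the libraries in the blocked alternative; correlations of same-sort deviations were 0.0315 to 0.205, against -0.160 to 0.112 for other pairs. All 40 genes are named, called ones with fold changes and the others with TPM. Of each pathway list, up to 4 called genes with the smallest p are named, or the 2 most abundant; 1 gene named by this rule is not reported here. Fold changes compare means of log2 values. The members, lists and tests were chosen with earlier results of these data known. Alternatives were other pseudocounts, filters, scalings, models and left-out libraries. Leaving out sort 2B, and the same with unchanged genes, was chosen after seeing the data. Exon overlaps are from GENCODE on the same build.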

Additional observations from a re-analysis of the deposited data

How the results depend on the processing

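Over 23 alternatives, the number of cell cycle genes called lower in CCR2-RFP than in the double-negative population, called in either direction between CX3CR1-GFP and double-negative cells, or called higher in CX3CR1-GFP than in CCR2-RFP cells remained 0. The 9 genes called higher in CCR2-RFP than in the double-negative population became 2 with a filter at 5 TPM, which left only 2 of the 9 (Stmn1 and Top2a) to test, 2 without sort 2A and 3 without sort 2B, which left 11 of the 40 genes to test; leaving out single libraries gave 5 to 10. The 4 genes called lower in CX3CR1-GFP than in CCR2-RFP cells became 0 with a filter at 5 TPM, which tested none of the 4, 0 without sort 2A and 1 without sort 2B, and leaving out single libraries gave 3 to 12. With the sort label as a replicate block they became 7, and the 9 became 10 by adding Ccnb2; the paired fit changed no other count of these 40 genes, and the list genes whose call it changed are named in the report. The cause of these shifts beyond fewer genes or libraries tested was not tested. Rescaling without Siglece, Rn18s, mitochondrial and ribosomal protein genes moved the median log2 fold change of all genes from 0.09 to -0.07 for CCR2-RFP against double-negative cells and from -0.11 to 0.13 for CX3CR1-GFP against CCR2-RFP cells. All genes called higher and lower went from 1512 and 1001 to 991 and 1253, and from 908 and 1758 to 1436 and 982, while 8 and 3 cell cycle genes kept their call. No called gene of the 40 changed sign, nor did any list gene whose called fold change is printed in the report. Sign changes of the other list and marker genes named as called are not reported here. With 3 libraries per population and most genes under 5 TPM, small differences were not detectable.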
